A study of Mus musculus with 12 samples.

Results

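The guanylate-binding proteins, a family of large GTPases made in response to interferon, were followed across 12 bulk RNA-seq libraries of mouse melanoma tumours. The 10 genes were the rows of the deposited count table named Gbp2, Gbp2b, Gbp3, Gbp4, Gbp5, Gbp6, Gbp7, Gbp8, Gbp9 and Gbp10, out of 54532 genes in all. They lie in a pair of clusters, with 5 genes at chr3:142493978-142638008 and 5 at chr5:105014150-105293698 (mm10). The tumours were wild-type B16F10 cells, a pigmented melanoma line, of which 1000 were injected intradermally with Matrigel on day 0 into both legs of male hosts 8 to 12 weeks old. The 6 iKO libraries came from Trex1 fl/fl-R26CreERT2-ki/wt hosts, in which tamoxifen lets Cre remove both Trex1 alleles. The 6 Ctrl libraries came from Trex1 wt/fl-R26CreERT2-ki/wt hosts, which carry the same Cre and can lose 1 allele only. All hosts received 1 mg tamoxifen intraperitoneally on 3 days starting on day 5, and tumours were taken on day 14. Cre sits at the Rosa26 locus, which is active in host cells of all types, and the injected tumour cells keep their own Trex1. The cells were sorted from digested tumours as Cd45-negative Cd31-negative cells, gates that leave out leukocytes and endothelium, whereas the design text names infiltrating immune cells and the library field single cells. The table holds 1 column per tumour library, and no label ties a library to a mouse, so the p-values below measure the spread between libraries only.

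Guanylate-binding proteins are induced by interferon-gamma and, less strongly, by type I interferons. In infected cells they gather on the membranes of vacuoles that hold microbes and on bacteria in the cytosol, and help caspase-4 (called caspase-11 in mice) and the Aim2 inflammasome to sense them. Gbp2b is the mouse gene long called Gbp1, and Gbp2b, Gbp2 and Gbp5 end in a CaaX motif to which a lipid anchor is added. Trex1 is an exonuclease that degrades DNA in the cytosol, and its loss is known to raise type I interferon through the cGAS-STING pathway.

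Total counts were 29808243 to 35520399 in iKO libraries and 34342436 to 45828565 in Ctrl libraries, so 3 counts, the limit that a count of 0 allows, correspond to 0.0642 to 0.102 counts per 1e6 (CPM). This limit covers counting error only. Trex1 had 0 counts in all 12 libraries, so the table offers no check of the deletion. Ptprc, which encodes Cd45, averaged 191 ± 108 CPM in iKO libraries and 3.10 ± 6.12 CPM in Ctrl libraries (SD, n = 6 each), although the gate is meant to leave out cells that carry it. Pecam1, which encodes Cd31, averaged 10.9 ± 3.72 CPM in iKO libraries and 4.18 ± 0.705 CPM in Ctrl libraries. A leukocyte score, the mean log2 CPM of 10 leukocyte markers, was 4.42 in iKO 1 and 6.87 to 7.66 in the other iKO libraries, against 4.67 in Ctrl 5 and 0.96 to 2.37 in the other Ctrl libraries. iKO 1 and Ctrl 5 therefore stand apart from their groups and lie close to each other. Xist, a transcript of the inactive X chromosome, had 6869 counts in iKO 2 and 4124 in iKO 3, against at most 247 in any other library, which goes against the male label of those 2 libraries.

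All 10 genes were higher in iKO than in Ctrl tumours, and for each of them every iKO library lay above every Ctrl library. The median log2 fold change over the 10 genes was 2.51, a 5.68-fold difference, with a range of 2.05 for Gbp10 to 6.12 for Gbp2b, against a median of 0.02 over all 16164 tested genes. In the same edgeR quasi-likelihood test 25.0% of all tested genes were called higher and 21.4% lower, and 11.8% had every iKO library above every Ctrl library. All 10 genes passed the filter on low counts. Gbp2b, with 28 counts in all Ctrl libraries together, passed only through the iKO libraries, so its call as higher is partly set by the filter. Since these libraries are bulk, more cells that express a gene and more RNA per cell cannot be told apart here. All 10 remained higher with iKO 1 and Ctrl 5 left out, with a median of 2.63 against 27.0% of tested genes called higher. The same held with iKO 2 and iKO 3 left out, with a median of 2.37 against 21.6%.

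**Figure D1:**
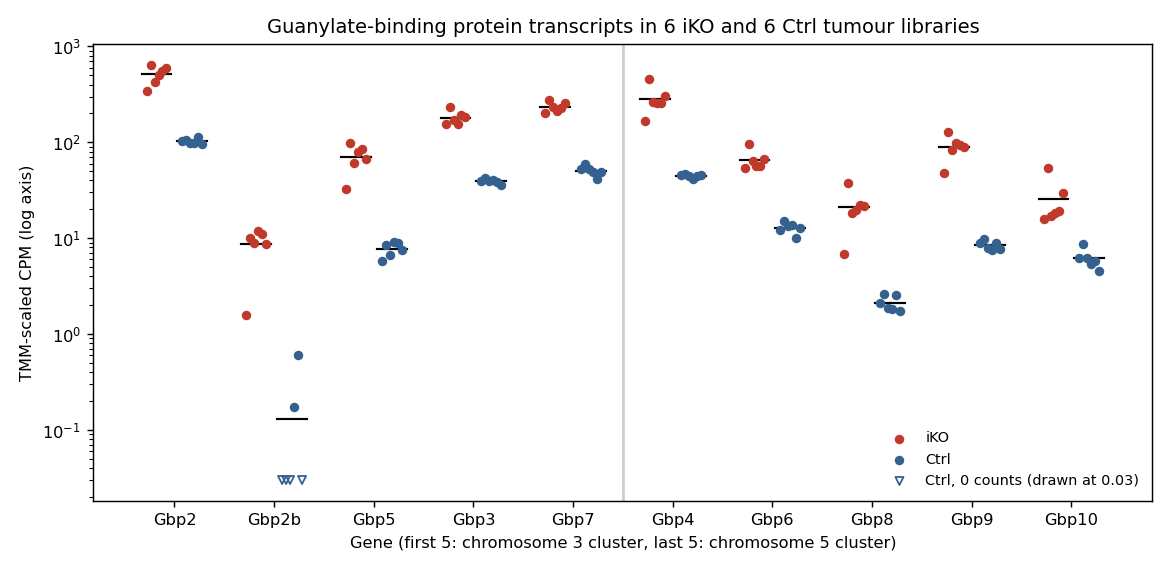
CPM of the 10 guanylate-binding protein genes in each library on a log axis, with iKO left of Ctrl for each gene, points for libraries, a bar for the group mean and open triangles for libraries with 0 counts. For each gene the 6 iKO libraries lie above the 6 Ctrl libraries, with the smallest gap for Gbp10, where the lowest iKO library had 15.8 CPM and the highest Ctrl library 8.76 CPM.

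On chromosome 3 the promoters of the genes carry matches to the core of the interferon-stimulated response element (ISRE), the DNA element through which interferon-activated factors switch on their targets. The core was searched as GAAA, NN and GAAA in 1 run, where N is any base, and the core of the gamma-activated site (GAS), an element of interferon-gamma responses, as TTCNNNGAA, on both strands of windows from 250 bases before to 50 after each RefSeq start (GRCm38.p6). All 5 genes of the chromosome 3 cluster had an entry, and each had a window with an ISRE core, which 3.44% of all 32851 promoter windows hold. Gbp5 and Gbp7 also had GAS cores, which 8.3% of windows hold, and 0.454% of windows hold both. Gbp4, Gbp6, Gbp8, Gbp9 and Gbp10 have no entry. The windows of Gbp2, the gene with the highest level, of Gbp2b, the gene with the largest difference, and of Gbp5, which holds both motifs, are shown on the plus strand with motif matches in capitals.
Gbp2, chr3:142620413-142620712: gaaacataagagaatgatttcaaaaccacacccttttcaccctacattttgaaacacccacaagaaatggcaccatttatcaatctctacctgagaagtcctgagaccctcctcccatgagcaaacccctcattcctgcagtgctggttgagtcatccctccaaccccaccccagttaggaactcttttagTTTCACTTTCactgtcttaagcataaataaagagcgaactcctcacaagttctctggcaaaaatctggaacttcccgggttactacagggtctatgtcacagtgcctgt
Gbp2b, chr3:142594597-142594896: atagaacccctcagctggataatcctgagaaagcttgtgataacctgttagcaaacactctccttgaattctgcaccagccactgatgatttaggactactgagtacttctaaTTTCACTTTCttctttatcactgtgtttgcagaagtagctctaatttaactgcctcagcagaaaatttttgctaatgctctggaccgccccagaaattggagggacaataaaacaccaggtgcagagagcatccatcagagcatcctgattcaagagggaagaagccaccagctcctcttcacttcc
Gbp5, chr3:142496684-142496983: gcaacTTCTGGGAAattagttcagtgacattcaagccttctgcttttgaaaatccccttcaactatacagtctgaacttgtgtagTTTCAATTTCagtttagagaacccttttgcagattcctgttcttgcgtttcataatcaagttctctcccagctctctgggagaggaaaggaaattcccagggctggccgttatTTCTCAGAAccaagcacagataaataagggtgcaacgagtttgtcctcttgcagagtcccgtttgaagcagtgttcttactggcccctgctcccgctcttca
In Gbp2 and Gbp2b the ISRE core reads TTTCACTTTC on the printed strand, with its first base at -59 and -137 from the start. Gbp5 reads TTTCAATTTC at -165, with GAS cores TTCTGGGAA at -245 and TTCTCAGAA at -52. Gbp7 reads TTTCAGTTTC at -53, with GAS cores TTCCAGGAA at -106 and TTCTCAGAA at -87. Gbp3 reads TTTCAGTTTC at -45 and, overlapping it, TTTCTATTTC at -39 in the first of its 2 windows, and neither motif in the other. The GAS core did not match in the windows of Gbp2, Gbp2b and Gbp3. These matches describe the letters only, since no binding was measured here.

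Gbp2 (chr3:142620602-142638008, plus strand) was the most abundant member, and in mice it is recruited to Toxoplasma vacuoles and takes part in Aim2 activation. It had 340.3 to 644 CPM, median 529.6, in iKO libraries and 96.5 to 113 CPM, median 101, in Ctrl libraries. The lowest iKO library, iKO 1, was 3.02-fold above the highest Ctrl library, Ctrl 5. The log2 fold change was 2.32 ± 0.13 (SE; 4.98-fold; edgeR adjusted p = 4e-08). Gbp2b (chr3:142594847-142619179, plus strand), its closest relative with 76.2% identical residues, had far fewer counts and the largest fold difference of the family. Its counts in iKO libraries 1 to 6 were 49, 313, 316, 351, 377 and 292, whereas Ctrl 4 had 6, Ctrl 5 had 22 and the other Ctrl libraries had 0. iKO 1 was thus low among the iKO libraries and Ctrl 5 high among the Ctrl libraries, and these are the pair with intermediate leukocyte scores. The log2 fold change of Gbp2b was 6.12 ± 1.05 (adjusted p = 0.000885) and was 8.05 without Ctrl 5. Scaled to library size, the summed iKO counts of 1698 stood 75.9-fold above the 28 Ctrl counts, with an exact 95% interval of 52.4 to 115 that covers counting error only. Without Ctrl 5 the 6 remaining Ctrl counts gave a ratio of 302 (138 to 823).

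Gbp3 and Gbp7 had the most even differences in the chromosome 3 cluster, and their proteins share 71.0% of residues. Gbp3 (chr3:142560026-142573209, plus strand) had 156 to 231 CPM, median 177, in iKO libraries and 35.5 to 42.3 CPM, median 39.5, in Ctrl libraries. Gbp7 (chr3:142530342-142550149, plus strand), which in mice promotes assembly of the phagocyte NADPH oxidase, had 201 to 279 CPM, median 232, in iKO libraries and 41.4 to 59.6 CPM, median 50.9, in Ctrl libraries. The ranges were narrow relative to the gaps, with a coefficient of variation among iKO libraries of 15.7% for Gbp3 and 12.2% for Gbp7, the lowest of the 10 genes. Their log2 fold changes were 2.20 ± 0.09 (adjusted p = 2.71e-09) and 2.21 ± 0.10 (adjusted p = 3.19e-09). Gbp5 (chr3:142493978-142522344, plus strand), described in mouse macrophages as a promoter of inflammasome assembly, was lower in level and larger in fold. It had 32.4 to 98.4 CPM, median 73.2, in iKO libraries and 5.82 to 9.15 CPM, median 8.0, in Ctrl libraries. Again iKO 1 was the lowest iKO library, 3.54-fold above the highest Ctrl library, and the log2 fold change was 3.18 ± 0.24 (adjusted p = 2.19e-06).

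The chromosome 5 cluster holds genes of the same family whose individual roles are less worked out, and its largest differences were those of Gbp9 and Gbp8. Gbp9 (chr5:105077630-105139539, minus strand) had 47.4 to 128 CPM, median 91.7, in iKO libraries and 7.49 to 9.79 CPM, median 8.37, in Ctrl libraries, with a log2 fold change of 3.41 ± 0.20 (10.6-fold; adjusted p = 1.33e-07). The lowest iKO library was 4.84-fold above the highest Ctrl library, the widest gap of the 10 genes. Gbp8 (chr5:105014150-105139540, minus strand) had 6.91 to 37.3 CPM, median 20.6, in iKO libraries and 1.75 to 2.62 CPM, median 1.98, in Ctrl libraries, with a log2 fold change of 3.31 ± 0.32 (9.92-fold; adjusted p = 1.25e-05). Gbp4 (chr5:105115767-105139586, minus strand) was the most abundant gene of the cluster, at 167 to 462 CPM, median 261, in iKO libraries and 41.2 to 46.8 CPM, median 45.3, in Ctrl libraries. Its log2 fold change was 2.67 ± 0.19 (adjusted p = 1.48e-06). Its Ctrl libraries were the most even of the family, with a coefficient of variation of 4.43%, against 34.2% among iKO libraries. Gbp4, Gbp8 and Gbp9 overlap in the annotation by 60 or 61 exon bases, so few reads could be shared between them.

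Gbp6 and Gbp10 encode proteins that share 97.7% of residues, and their separate values are uncertain because the counting could have split or dropped reads that match both. Gbp6 (chr5:105270702-105293698, minus strand) had 53.8 to 96.6 CPM, median 60.1, in iKO libraries and 10.1 to 15.1 CPM, median 13.1, in Ctrl libraries. Gbp10 (chr5:105215699-105239533, minus strand) had 15.8 to 53.4 CPM, median 18.8, in iKO libraries and 4.53 to 8.76 CPM, median 6.03, in Ctrl libraries. iKO 2 was far above the rest for Gbp10, at 2.83 times the iKO median. The log2 fold changes were 2.35 ± 0.14 for Gbp6 (adjusted p = 6.39e-08) and 2.05 ± 0.31 for Gbp10 (adjusted p = 0.000306), the lowest of the family. Of all 100-base windows of its annotated transcripts, Gbp10 shares 60.06% with Gbp6, and Gbp6 shares 36.28% with Gbp10. Both share more windows with Gm43302, 63.58% of Gbp10 and 58.98% of Gbp6, an annotated gene that overlaps them and had 8 counts in all iKO libraries and 2 in all Ctrl libraries. With the counts of Gbp6 and Gbp10 summed, 17731 in iKO against 4662 in Ctrl, the log2 fold change was 2.26 ± 0.19 (edgeR adjusted p = 3.67e-06). The sum does not depend on how reads were split between the pair. Reads dropped because they match both genes, or for the overlap with Gm43302, would be missing from the sum too. The other members shared at most 10.01% of windows with any other gene. That highest share was Gbp7's, mostly with Gm43802 (9.59%), which had 0 counts.

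**Figure D2:**
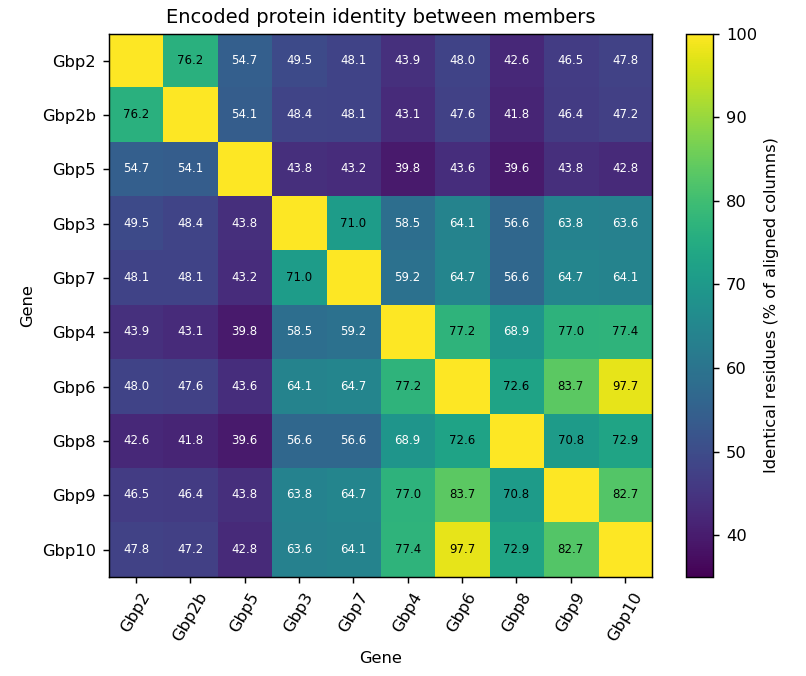
Percent of identical residues between each pair of the 10 proteins, ordered by cluster, from translated GENCODE M21 transcripts. Pairs within the chromosome 5 cluster have 68.9% to 97.7% identity, pairs within the chromosome 3 cluster 43.2% to 76.2%, and Gbp6 with Gbp10 is the closest pair.

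Per kilobase of the deposited gene length, the levels of the 10 genes covered a wide range. Gbp2 led at 203 ± 44.4 CPM per kb in iKO libraries and 40.7 ± 2.40 in Ctrl libraries (SD, n = 6 each), and in each group all 6 of its values lay above those of every other member. Gbp3 followed at 55.5 ± 8.69 in iKO and 12.1 ± 0.708 in Ctrl, then Gbp7 at 42.0 ± 5.14 in iKO and 9.04 ± 1.07 in Ctrl, and Gbp4 at 38.0 ± 13.0 in iKO and 5.98 ± 0.265 in Ctrl. These 4 genes kept this order in both groups, and the neighbours' ranges were apart among Ctrl libraries but overlapped among iKO libraries below Gbp2. The next levels were 17.4 ± 5.06 in iKO and 1.64 ± 0.173 in Ctrl for Gbp9, 11.0 ± 2.67 in iKO and 2.17 ± 0.282 in Ctrl for Gbp6, and 10.6 ± 3.44 in iKO and 1.17 ± 0.199 in Ctrl for Gbp5. Gbp9 thus stood above Gbp6 in all 6 iKO libraries, whereas Gbp6 stood above Gbp9 in 5 of 6 Ctrl libraries. Gbp10 had 6.62 ± 3.74 in iKO and 1.59 ± 0.368 in Ctrl. It stood below Gbp5 in all 6 iKO libraries and above Gbp5 in all 6 Ctrl libraries. Of the 100-base windows, 64.49% of Gbp6 and 73.52% of Gbp10 are shared with other genes. Dropped reads would lower the levels of both, so the places of Gbp6 and Gbp10 are uncertain. The lowest levels in both groups were 6.11 ± 2.83 in iKO and 0.615 ± 0.113 in Ctrl for Gbp8 and 3.08 ± 1.31 in iKO and 0.0461 ± 0.0863 in Ctrl for Gbp2b. All 10 genes together came to 393 ± 84.7 CPM per kb in iKO and 75.0 ± 3.46 in Ctrl. Gbp2 made up 51.5 ± 2.51% of that sum in iKO and 54.3 ± 2.05% in Ctrl, with overlapping ranges. Gbp9 was the only member whose shares did not overlap, at 3.38% to 5.10% in iKO and 1.97% to 2.35% in Ctrl.

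**Figure D3:**
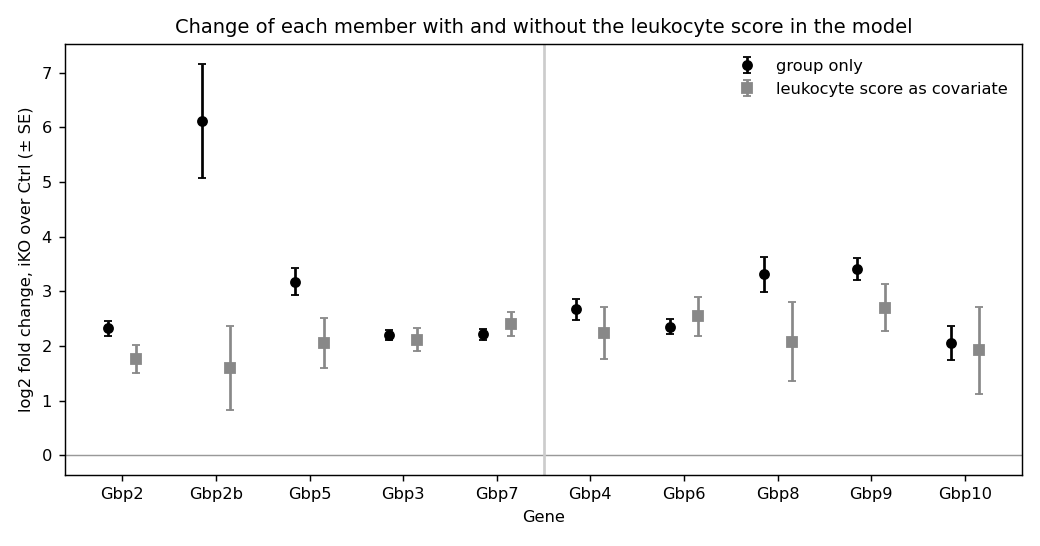
Log2 fold change, iKO over Ctrl, of each of the 10 genes with its SE in the fit with group alone and in the fit that adds the leukocyte score. All values lie above 0, from 2.05 to 6.12 with group alone and from 1.60 to 2.70 with the score, where Gbp2b moved the most.

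Markers of leukocytes moved with the family, and for 3 members the call did not hold once they entered the fit. Of 10 leukocyte markers 9 were higher in iKO, with a median log2 fold change of 5.04, and their summed level was 456 to 2409 CPM in iKO libraries and 302 to 512 CPM in Ctrl libraries. T cell and cytotoxic lymphocyte markers were higher in 10 of 10 cases, at 22.7 to 307 CPM summed in iKO and 3.93 to 12.2 CPM in Ctrl. Cd3e, Cd3d, Cd3g, Cd2, Cd5, Cd8a and Nkg7 were at 0 counts in 3 or more Ctrl libraries and in no iKO library. Those 7 genes passed the filter on low counts only through the iKO libraries, so the count of 10 is partly set by the filter. The same holds for 1 of the leukocyte markers. Macrophage and monocyte markers were higher in 9 of 10 cases, at 243 to 2183 CPM summed in iKO and 16.5 to 437 CPM in Ctrl. Melanocyte markers were lower in 6 of 7 cases, with a median of -0.42, at 15053 to 21454 CPM in iKO and 21548 to 21937 CPM in Ctrl. Endothelial markers were higher in 3 of 6 cases, at 14.8 to 54.4 CPM in iKO and 12.5 to 17.4 CPM in Ctrl. Fibroblast markers were higher in 1 of 7, at 597 to 14642 CPM in iKO and 2262 to 2584 CPM in Ctrl. Of all tested genes 25.0% were called higher and 21.4% lower. For so few genes the endothelial and fibroblast counts are not apart from that share. The part of these cell types in the family's difference was not tested. The fit with the leukocyte score below does not test it either, since the score largely follows the group. iKO 1 and Ctrl 5 set the inner ends of several of these ranges. Without them the lowest iKO and highest Ctrl sums were 1349 and 361 CPM for leukocyte markers, 147 and 5.63 CPM for T cell markers, 1333 and 51.6 CPM for macrophage markers, and 36.9 and 15.3 CPM for endothelial markers. With the leukocyte score as a covariate, 7 of the 10 genes stayed higher in iKO by edgeR's adjusted p, against 6.14% of all tested genes. Those 7 had log2 fold changes from 1.76 for Gbp2 to 2.70 for Gbp9, with Gbp7 at 2.40, Gbp3 at 2.11, Gbp4 at 2.24, Gbp5 at 2.05 and Gbp6 at 2.54. Gbp2b had 1.60 ± 0.77 (edgeR adjusted p = 0.196), Gbp8 2.08 ± 0.73 (adjusted p = 0.0855) and Gbp10 1.92 ± 0.80 (adjusted p = 0.144). The score largely follows the group, so the fit separates them with little precision. For Gbp10 the log2 fold change was 2.05 ± 0.31 without the score, so its estimate moved little while its SE widened. Gbp2b fell from 6.12 ± 1.05.

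The libraries with like leukocyte scores give a view of the same kind without a model. iKO 1 and Ctrl 5, at scores of 4.42 and 4.67, differed by 2.61-fold for Gbp2b to 5.32-fold for Gbp6, and iKO 1 was higher for all 10 genes. This is 1 library against 1, so no test applies. The pair is matched on the score, not on its cell types. T cell markers summed to 22.7 CPM in iKO 1 and 12.2 CPM in Ctrl 5, and macrophage markers to 243 and 437 CPM. Among the Ctrl libraries, Ctrl 5 had 22 counts of Gbp2b, against 6 in Ctrl 4 and 0 in the others, but it was at 0.751 to 1.26 times the mean of the others for the other 9 genes. Among the iKO libraries, iKO 1 was at 0.156 of the mean of the others for Gbp2b, 0.290 for Gbp8 and 0.415 for Gbp5, whereas it was at 0.836 for Gbp3, 0.829 for Gbp7 and 0.791 for Gbp6. Whether the genes differ in how closely they follow the leukocyte markers was not tested.

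**Figure D4:**
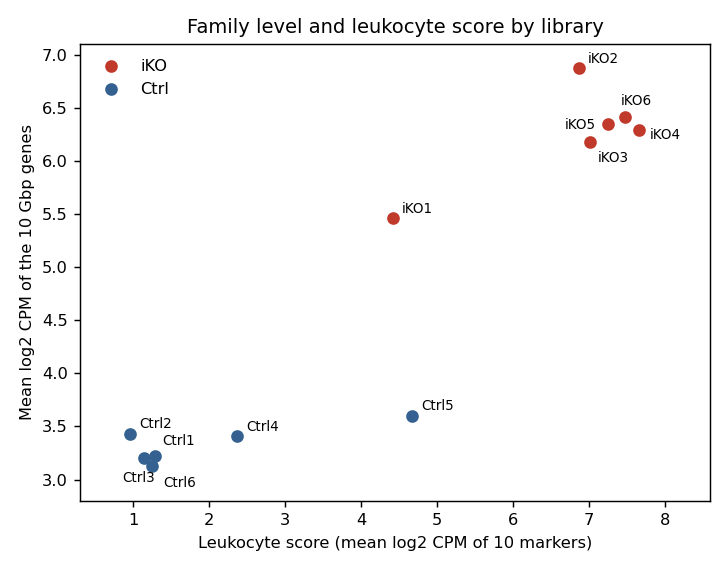
Mean log2 CPM of the 10 guanylate-binding protein genes against the leukocyte score in each of the 12 libraries. iKO 1 and Ctrl 5 have like scores, 4.42 and 4.67, but family means of 5.46 in iKO 1 and 3.60 in Ctrl 5, while the other iKO libraries lie at 6.18 to 6.87 and the other Ctrl libraries at 3.13 to 3.43.

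Within the iKO group most pairs of members had high correlations from library to library, with the lowest values for pairs with Gbp2b. Over the 6 iKO libraries the median Pearson r of log2 CPM between members was 0.79 for pairs on chromosome 3, 0.91 for pairs on chromosome 5 and 0.86 for pairs between the clusters. The single values ran from 0.35 for Gbp2b with Gbp6 to 0.99 for a pair on chromosome 5, and Gbp2b had 0.36 with Gbp10 and 0.43 with Gbp3. Over the 6 Ctrl libraries the medians were 0.23, 0.45 and 0.27 in the same order. Single Ctrl values ran from -0.85 for Gbp2b with Gbp7 to 0.93 for Gbp8 with Gbp9. Gbp2b had counts only in Ctrl 4 and Ctrl 5, so its Ctrl correlations rest mostly on libraries with 0 counts. These are descriptions over 6 libraries, and the values of a library share its depth and cell make-up. Pairs of other genes were not compared. iKO 2 was the highest iKO library for 9 of the 10 genes, all but Gbp2b, and iKO 1 the lowest for 9, all but Gbp3. Ctrl 2 was the highest Ctrl library for 7 genes.

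Of the 12 genes that flank the clusters, Abcg3 and Lrrc8c differed by over 1 on the log2 scale, and both lie by the chromosome 5 cluster. Of all tested genes 86.7% had a smaller log2 fold change than Lrrc8c, and 25.0% were called higher and 21.4% lower. For 12 genes the counts of large differences and of calls are not apart from those shares. No other tested protein-coding gene lies between the members. On chromosome 3, Pdlim5, 98282 bases before the cluster, had a log2 fold change of 0.24 ± 0.07 (adjusted p = 0.0113), and Kyat3, 63043 bases after it, fell by 0.58 on the log2 scale (adjusted p = 0.0013). Gtf2b also passed, with a log2 fold change of -0.19 (adjusted p = 0.0383) that lost its call under most alternatives, and Unc5c, Bmpr1b and Pkn2 did not pass. On chromosome 5, Lrrc8c, a subunit of a volume-regulated anion channel, rose by 1.08 ± 0.15 (adjusted p = 0.000103), while its neighbours Lrrc8b and Lrrc8d had -0.06 and -0.08 and did not pass. BC005561 had 0.45 (adjusted p = 0.0215), a call lost with iKO 2 and iKO 3 left out, at 0.42 (adjusted p = 0.0718), and Zfp951 did not pass. Abcg3, a transporter gene 31432 bases before the cluster, had 5.74 ± 2.82 CPM in iKO and 0.296 ± 0.619 CPM in Ctrl. It had 8 counts in Ctrl 4, 56 in Ctrl 5 and 0 in the other Ctrl libraries. The log2 fold change of Abcg3 was 4.31 ± 1.27 (edgeR adjusted p = 0.017) and was 7.05 without Ctrl 5. With the leukocyte score in the fit it was -1.67 and did not pass (edgeR adjusted p = 0.19). With the score, Pdlim5 (0.43), Kyat3 (-0.31) and Lrrc8c (0.47) lost their calls, and Unc5c gained one, at 0.97 (adjusted p = 0.004). Pdlim5 also lost its call without a filter, at 0.18 (adjusted p = 0.0674). Lrrc8d passed with iKO 1 and Ctrl 5 left out, at -0.19 (adjusted p = 0.0225).

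**Figure D5:**
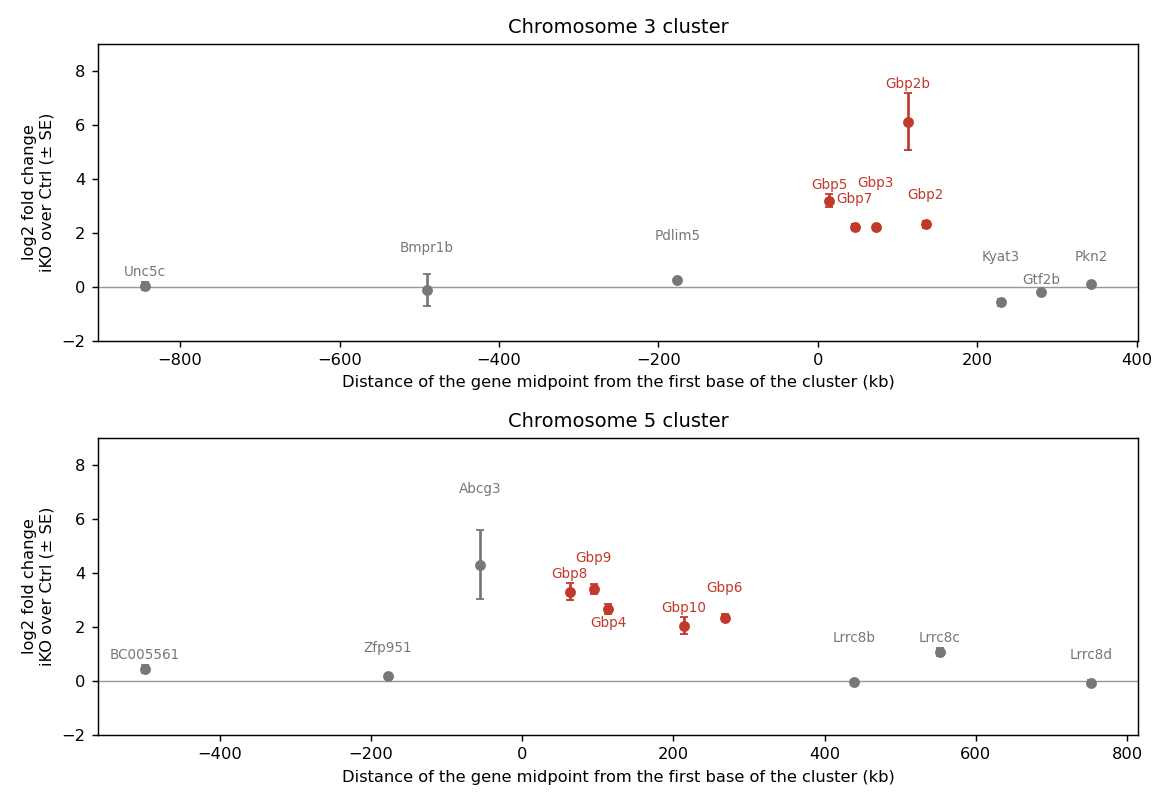
Log2 fold change, iKO over Ctrl, with its SE, for the members and the 3 nearest tested protein-coding genes on each side of the chromosome 3 and chromosome 5 clusters, by distance from the first base of the cluster in kb. The 10 members lie at 2.05 or above, and of the 12 flanking genes Abcg3 at 4.31 and Lrrc8c at 1.08 lie above 1.

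Outside the 10 genes the table also names Gbp11, a polymorphic pseudogene of the chromosome 5 cluster, and Gbp2-ps, which had 0 counts. Gbp11 had 7.76 ± 4.44 CPM in iKO and 3.28 ± 0.552 CPM in Ctrl, a difference of 1.24 ± 0.28 on the log2 scale (adjusted p = 0.00263 by edgeR). iKO 2 had 16.5 CPM and the other iKO libraries 4.54 to 7.88 CPM, and without iKO 2 the log2 fold change was 0.87. With the leukocyte score it was 1.46 and did not pass.

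Most genes of a list that relays or limits the interferon signal to these genes were also higher. The list holds Ifng, receptor chains, kinases, transcription factors and Socs1, a feedback inhibitor. Of its 16 tested genes 15 were higher in iKO and none lower, against 25.0% of all tested genes called higher. The median log2 fold change of the 16 was 1.17. Irf9 and Stat2, which bind the ISRE in a complex, were higher by 1.27 ± 0.08 (edgeR adjusted p = 5.92e-08) and 2.11 ± 0.15 on the log2 scale (adjusted p = 7.11e-07). Irf1, a main driver of guanylate-binding protein genes, had 232 ± 54.5 CPM in iKO and 65.7 ± 4.67 CPM in Ctrl, a log2 difference of 1.82 ± 0.14 (adjusted p = 1.18e-06). Ifng, the ligand, named after its values were seen, had 4.88 CPM in iKO and 0.0644 CPM in Ctrl. Its log2 fold change was 6.27 ± 1.10 (edgeR adjusted p = 0.000907). Ifng was at 0 counts in 3 or more Ctrl libraries and passed the filter on low counts only through the iKO libraries. Its Ctrl mean lies within the 0.0642 to 0.102 CPM that 3 counts correspond to, so the size of the ratio is uncertain. Ifngr2, a chain of its receptor, had 0.06 (adjusted p = 0.335), and Ifnb1 did not pass the filter on low counts. With the leukocyte score in the fit, 5 of the 16 genes were higher, against 6.14% of all tested genes.

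Other interferon-induced GTPases behaved like the family in direction. All 10 tested immunity-related GTPases and other large GTPases were higher, with a median of 2.06, against 25.0% of all tested genes. With the leukocyte score 9 were still higher, against 6.14% of all tested genes. Iigp1, an effector that coats Toxoplasma vacuoles, rose by 2.47 ± 0.14 on the log2 scale, Irgm1, a regulator of that effector group, by 1.75 ± 0.10, Ifi47 by 2.10 ± 0.13 and Mx2, a dynamin-like antiviral GTPase, by 1.66 ± 0.11. The atlastins, GTPases of the endoplasmic reticulum related in structure to guanylate-binding proteins, moved little, with Atl3 at 0.34 ± 0.08 (adjusted p = 0.00274), Atl2 at -0.21 ± 0.06 (adjusted p = 0.0161, a call lost without Ctrl 4, at -0.15) and Atl1 at -0.21 (adjusted p = 0.125).

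Among genes whose products act with guanylate-binding proteins, all 10 inflammasome partners were higher, with a median of 3.11, against 25.0% of all tested genes. Of the partners 1 was at 0 counts in 3 or more Ctrl libraries and passed the filter on low counts only through the iKO libraries. Casp4, which binds bacterial lipopolysaccharide, rose by 1.94 ± 0.13 on the log2 scale and Gsdmd, the pore-forming protein cut by these caspases, by 2.25 ± 0.19. Casp1 rose by 3.97 ± 0.48 and Aim2, the sensor of cytosolic DNA, by 4.03 ± 0.70. Both lost their calls with the leukocyte score, at 1.48 and 0.03. In that fit 2 of the 10 partners were higher, against 6.14% of all tested genes. Of 6 enzymes that attach or process the CaaX anchor, 1 was higher and 2 lower, with a median of -0.06, which for so few genes is not apart from the 25.0% and 21.4% of all tested genes. Pggt1b, the subunit that sets geranylgeranylation, rose by 0.41 ± 0.08, Fnta, the subunit shared with farnesylation, fell by 0.37, and Fntb, the farnesylation subunit, had -0.22 ± 0.07 (adjusted p = 0.019), a call that 3 of the 12 single-library omissions ended. Of 9 ubiquitin-like coat and autophagy factors, which target these GTPases to vacuoles, 1 was higher and 2 lower, with a median of -0.08, a share lower near the 21.4% of all tested genes. They were Atg16l1 at 0.23 ± 0.06 (adjusted p = 0.00927), Gabarapl2 at -0.31 ± 0.09 (adjusted p = 0.00896) and Map1lc3b at -0.14 ± 0.05 (adjusted p = 0.0365), of which Map1lc3b lost its call under most alternatives.

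Across the 12 libraries the genes whose log2 CPM was most like the mean of the 10 members were H2-K1 (Pearson r = 0.9981), H2-Q4 (0.9980), H2-D1 (0.9973), Tapbp (0.9966) and Mndal (0.9965). The first 3 encode class I major histocompatibility heavy chains, Tapbp encodes tapasin of the peptide-loading complex and Mndal a p200 family protein. The 12 libraries form 2 separate groups, so these values largely reflect the distance between groups. The log2 fold changes of the 5 genes were 1.83 to 3.09, the highest being Mndal.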

How the data were processed

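RNA was measured in 12 libraries (6 iKO, 6 Ctrl). The values are raw counts per gene as deposited by the authors, with coordinates and gene lengths. The build is mm10, per the submitters' processing notes, and the poly-T library type does not keep strand, per the labels' protocols. Which aligner and counter were used is not given in the sources used here. edgeR 4.0.16 in R 4.3.3 was run on the whole table with TMM factors and a robust quasi-likelihood fit on group alone, after a filter (minimum count 10, minimum total 15) that kept 16164 genes and 99.9% of counts. Adjusted p is Benjamini-Hochberg over all tested genes, with a threshold of 0.05. CPM values are TMM-scaled, the SE of a log2 fold change was derived from the F statistic, and log2 CPM uses a prior count of 2. The script was tested on simulated counts.

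Alternatives were RLE and upper-quartile factors, DESeq2 1.42.0, limma 3.58.1 (voom), other filters, each library left out, both library pairs that stand apart left out, a replicate block, a leukocyte covariate and the near-identical members summed. In GENCODE M21, 54495 of the 54532 genes were found, 98.3% with the same start and end. Protein identity was computed from translated GENCODE transcripts, and promoters are RefSeq's. Besides all members, the genes named are up to 4 of each list with the smallest p, the 3 nearest tested genes on each side of a cluster, the other Gbp symbols, Trex1, Ptprc and Pecam1, and the 5 genes most like the family mean; 1 gene that this rule names is not reported here. Members and lists were chosen with earlier results of these data known, so none of their directions is independent evidence.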

Additional observations from a re-analysis of the deposited data

Results flagged for a closer look

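Of 20 combinations of a member and a group, 4 held a library far from the other 5, by the gap to its nearest neighbour relative to the whole range, where chance marks about 1 in 20. Gbp2b had 1.58 CPM in iKO 1, whereas the other iKO libraries had 8.66 to 11.9 CPM. Gbp2b had 0.607 CPM in Ctrl 5, whereas the other Ctrl libraries had 0 to 0.175 CPM. Gbp6 had 96.6 CPM in iKO 2, against 53.8 to 66.7 CPM in the other iKO libraries. Gbp10 had 53.4 CPM in iKO 2, against 15.8 to 29.8 CPM in the other iKO libraries. Gbp6 and Gbp10 share much of their sequence, and how reads that match both were counted is not given in the sources. The part of leukocyte RNA in the Gbp2b values of iKO 1 and Ctrl 5 was not tested.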

How the results depend on the processing

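The 10 members were higher in iKO under all alternatives except the leukocyte covariate, and their median log2 fold change over the alternatives that kept all 10 calls was 2.36 (without iKO 2) to 2.63. The replicate numbers did not pair the libraries: same-numbered libraries had correlations of deviations from -0.13 to 0.25. With the replicate block 3489 genes were higher and 2984 lower, all 10 members were higher with a median of 2.46, and 1 ubiquitin-like factor was lower. Without a filter the median of all genes was 0.117 and that of the members 2.44, and upper-quartile factors called 22.0% of genes higher and 26.7% lower. With the leukocyte covariate 992 genes were higher and 1074 lower, the members' median was 2.10, and Gbp2b (1.60), Gbp8 (2.08) and Gbp10 (1.92) lost their calls. The same covariate left 5 interferon pathway genes, 2 inflammasome partners and 1 T cell marker higher. It left 0 leukocyte, macrophage, endothelial or fibroblast markers and 0 ubiquitin-like factors higher. It left 0 atlastins, CaaX enzymes or melanocyte markers lower. For leukocyte markers this follows from the covariate itself. Some estimates hardly moved as their calls were lost, such as Atl2 (-0.21 to -0.20) and Fnta (-0.37 to -0.34). Others shrank, such as Mitf (-0.44 to -0.10) and Tyrp1 (-0.35 to -0.05). Apart from leukocyte markers, the cause was not tested. With the leukocyte covariate the estimate changed sign for Pecam1 (-0.13), Atg16l1 (-0.01), Ptpn6 (-0.01), Ccr2 (-0.31), Bmpr1b (0.86), Abcg3 (-1.67), Lrrc8b (0.34) and Lrrc8d (0.44). None of these passed the threshold in that fit, where the lowest edgeR adjusted p was 0.0737 for Lrrc8d. Bmpr1b, Lrrc8b and Lrrc8d had not passed with group alone either. The estimate of Unc5c changed sign, without a call, with upper-quartile factors (-0.02), without a filter (-0.01) and without Ctrl 5 and iKO 1 (-0.12). The number of atlastins lower was 2 without Ctrl 5 and iKO 1 and 0 without iKO 2 and iKO 3. The ubiquitin-like list had 0 higher without a filter, and 1 lower with RLE factors, a minimum count of 50 or without Ctrl 5 and iKO 1. A minimum count of 50 left 6 T cell markers higher, since fewer were tested, and DESeq2 called 3 fibroblast markers higher. Leaving out 1 library gave log2 fold changes of -0.06 to 0.11 for Unc5c and -1.01 to 0.14 for Bmpr1b, counts lower of 0 to 2 for atlastins (0 without Ctrl 4, 2 without iKO 1), 1 to 2 for CaaX enzymes and 1 to 2 for ubiquitin-like factors, and 1 to 4 fibroblast markers higher (4 without iKO 6). Abcg3 was 7.05 without Ctrl 5. No level per kb moved beyond the spread without TMM factors. The number of libraries, and the few counts of Gbp2b in Ctrl, limit the precision.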
